A study of Mus musculus with 2 samples.

Results

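A set of 9 genes that mark the core and the formative states of pluripotency was followed by RNA-seq in 2 libraries of the line TRE-ESC, which is of embryonic stem (ES) cells of the mouse. They were picked by symbol from the deposited table of 14261 rows, and 8 of the 9 had a row (Pou5f1, Sox2, Sall4, Utf1, Lin28a, Zic2, Otx2 and Pou3f1). The expression of Fgf5 was not analysed here. The dox library came from a culture given doxycycline (dox), a tetracycline relative that turns on transgenes built to respond to it, and the no-dox library from a culture that received no agent. Both were grown as suspended cells in low adsorption dishes, in N2B27 medium with the cytokine LIF and 2i, inhibitors of a pair of kinases, and both carried the label 36 h. Each group had 1 library, so no value has a spread between cultures, no test was made, and every difference describes these 2 libraries. The labels do not say which promoter or transgene dox acts on, nor whether the line is a single clone. Jun, whose product c-Jun the series title names as the inducer, stood at 3821 in the dox library and 55 in the no-dox library. The question put to the data was whether the cells with dox kept the core factors and gained the formative ones.

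Pluripotent cells of the mouse embryo pass from a naive state, which 2i and LIF hold in culture, through a formative state in which they become competent for lineage choice. OCT4 (encoded by Pou5f1) and SOX2 bind DNA side by side at Oct-Sox elements and are used in both states. On leaving the naive state, cells lose the naive factors, gain OTX2, OCT6 (encoded by Pou3f1), ZIC2 and the growth factor FGF5, and keep OCT4.

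Values in the deposited table are whole numbers on a normalized scale without a unit. Both libraries had quartiles of 14, 62 and 184 and the maximum 14907, so their sums of 2709923 with dox and 2704318 without were not read as depth, which is unknown, and no counting interval is given. The values are not stated to be divided by transcript length, so levels are compared between the libraries and not between genes. Each comparison takes 1 gene, or the sum of 1 marker list, at a time. A fold or log2 ratio is the dox value plus a pseudocount of 10 over the no-dox value plus 10, so that ratios of genes with low values are drawn towards 1. Genes are called higher or lower with dox at 2-fold or more, where the larger of the pair of values was at least 50, the floor. At this floor 8547 genes entered, of which 9.23% were higher and 5.49% lower with dox, with a median log2 ratio of −0.08. Of the 8 regulators with a row, 6 reached the floor and Otx2 and Pou3f1 did not.

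Pou5f1 was within 2-fold and near level between the libraries, and the other core regulators had smaller values with dox. Among the formative regulators, Zic2 alone reached the floor, and it was lower with dox. Otx2 and Pou3f1 were under the floor and could not be counted either way. Of the 6 regulators at or above the floor, 3 were lower with dox (Sall4, Utf1 and Zic2) and 0 were higher, beside 5.49% and 9.23% of all genes. The remaining 3 were within 2-fold. Values were smaller with dox for 5 of the 6, all but Pou5f1, against 4690 of all 8547 genes. The median log2 ratio of the 6 was −1.0. In bulk RNA, fewer cells that express a gene and less of its RNA per cell cannot be told apart.

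**Figure D1:**
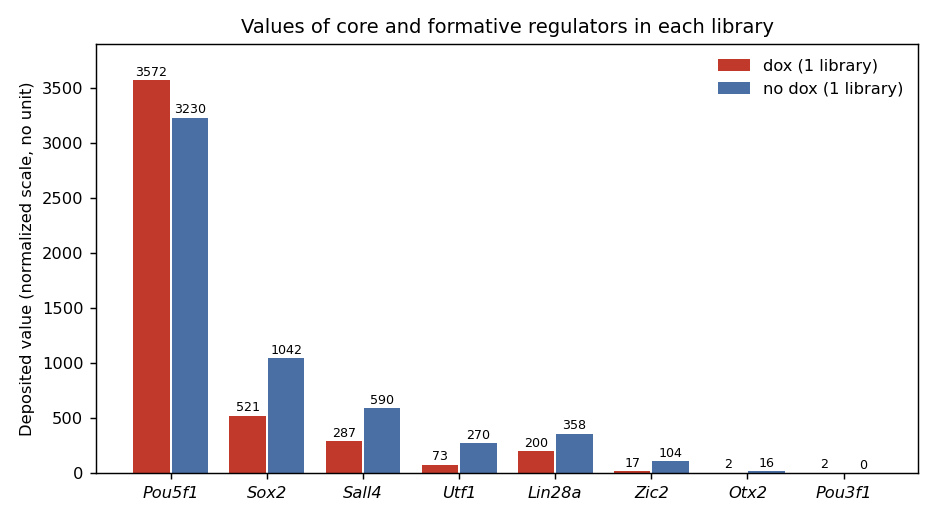
Deposited values (normalized scale without a unit, linear axis from 0) of the 8 regulators with a row, with the dox library on the left of each pair and the no-dox library on the right; each bar is 1 library. Pou5f1 stood at 3572 and 3230, while Sox2, Sall4, Utf1, Lin28a, Zic2 and Otx2 were all smaller with dox; values are not given per length, so bars are compared within a gene.

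To show where transcription of the core genes starts, the 250 bases before the RefSeq start (build GRCm38.p6, sense strand, 5′ to 3′) are given for Pou5f1, which was level, and for Sox2, Utf1 and Lin28a, which had smaller values with dox. Capitals mark the GC box GGGCGG on either strand, the kind of site that SP and KLF factors bind.
Pou5f1 chr17:35505782-35506031 (+ strand): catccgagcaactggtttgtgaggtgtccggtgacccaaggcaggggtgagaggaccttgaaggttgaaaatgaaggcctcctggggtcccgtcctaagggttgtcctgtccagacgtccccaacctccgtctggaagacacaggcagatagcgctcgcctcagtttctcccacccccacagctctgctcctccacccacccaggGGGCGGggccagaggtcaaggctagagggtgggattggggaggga
Sox2 chr3:34649745-34649994 (+ strand): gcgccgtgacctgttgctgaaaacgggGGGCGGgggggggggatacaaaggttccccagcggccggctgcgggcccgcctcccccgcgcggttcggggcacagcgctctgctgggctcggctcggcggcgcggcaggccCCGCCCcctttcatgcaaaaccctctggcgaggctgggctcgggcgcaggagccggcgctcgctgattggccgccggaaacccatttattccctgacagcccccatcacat
Utf1 chr7:139943606-139943855 (+ strand): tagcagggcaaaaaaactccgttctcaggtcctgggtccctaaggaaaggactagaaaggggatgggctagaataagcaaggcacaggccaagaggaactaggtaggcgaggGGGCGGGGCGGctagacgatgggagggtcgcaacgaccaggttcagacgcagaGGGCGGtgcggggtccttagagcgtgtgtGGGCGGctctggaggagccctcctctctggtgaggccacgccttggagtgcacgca
Lin28a chr4:134018817-134019066 (- strand): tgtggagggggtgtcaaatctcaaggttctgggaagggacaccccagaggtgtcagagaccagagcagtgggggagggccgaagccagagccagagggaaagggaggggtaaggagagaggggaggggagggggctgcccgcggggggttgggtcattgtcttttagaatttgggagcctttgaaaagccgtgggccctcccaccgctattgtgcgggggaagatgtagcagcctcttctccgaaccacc

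These windows held 1 GC box for Pou5f1, 2 for Sox2, 4 for Utf1 and 0 for Lin28a. In Utf1 the boxes that begin 138 and 133 bases before the start overlap by a base. The single box of Pou5f1 begins 45 bases before the start, in the conserved proximal part of this promoter. A GC box was present in 32.7% of the 32851 windows of the same length in the table. The Utf1, Sox2, Pou5f1 and Lin28a windows were 61.6%, 72.0%, 62.0% and 61.2% G and C, against a median of 52.4% over all windows. A further 3 motifs were sought on both strands: the octamer ATGCAAAT bound by OCT4, the SOX core AACAAT and the AP-1 site TGANTCA bound by c-Jun dimers. None of these had a match in the windows of the 6 regulators in the table (the 4 shown, Otx2 and Fgf5), and they were present in 1.6%, 9.42% and 6.75% of all windows. For genes with more than 1 start in the table, as Pou5f1 with 2, the window is that of the start farthest upstream. The RefSeq start of Sox2 lies upstream of the GENCODE gene start given with its values. For Pou5f1, Utf1 and Lin28a the GENCODE gene start lies inside the window. The Utf1 box that begins 56 bases before the RefSeq start is thus within the GENCODE gene. A match is a run of letters and not a site shown to be bound, and the windows leave out distal enhancers.

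Pou5f1, which encodes the POU-domain factor OCT4, stood at 3572 in the dox library and 3230 in the no-dox library. The value with dox was 1.11-fold that without, a log2 ratio of 0.14, and 64.3% of all genes had a ratio as low or lower. Its rank by value among all rows was 60 with dox and 69 without. Pou5f1 lies on chromosome 17 from 35506018 to 35510772 (GRCm38, GENCODE M21), on the plus strand.

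Sox2 encodes the HMG-box partner of OCT4 and stood at 521 with dox and 1042 without. That is 1.98-fold lower with dox, a log2 ratio of −0.99 that misses the 2-fold threshold by a small margin. The deposited values themselves are 2-fold apart, and the pseudocount alone brings the ratio under the threshold. Only 480 of the 8547 genes had a lower ratio. Sox2 is a gene of 1 exon on chromosome 3, from 34650405 to 34652461, inside the noncoding gene Sox2ot on the same strand.

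Sall4, a zinc finger factor gene whose product binds OCT4 and is needed for the growth of ES cells, stood at 287 with dox and 590 without. Its log2 ratio of −1.01, 2.02-fold lower with dox, lies just past the threshold, as that of Sox2 lies just short of it. With a pseudocount of 50, or with all log2 ratios centred on a median of 0, Sall4 fell short as well, at −0.93 and −0.94. These genes therefore had nearly the same ratio, and their different calls come from the threshold.

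Utf1 encodes a chromatin-associated protein of undifferentiated cells and is a classic target of OCT4 and SOX2. It stood at 73 with dox and 270 without, 3.37-fold lower with dox. Its log2 ratio of −1.75 was the lowest of the core regulators, and 85 of all genes had a lower ratio. The rank of Utf1 among all rows was 6612 with dox and 2402 without.

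Lin28a encodes the RNA-binding protein that blocks maturation of let-7 microRNAs. It stood at 200 with dox and 358 without, 1.75-fold lower with dox and within the threshold, with a log2 ratio of −0.81. Its paralogue Lin28b stood at 61 and 48, so the LIN28 genes had ratios on opposite sides of 1.

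Zic2, a zinc finger factor gene whose product binds enhancers in pluripotent cells, had the lowest log2 ratio of the regulators, −2.08. It stood at 17 with dox and 104 without, 4.22-fold lower with dox, and 48 of all genes had a lower ratio. With a floor of 250 it would not enter, since its larger value is below that floor. Zic2 lies on chromosome 14 from 122475435 to 122479852.

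Otx2 encodes the homeodomain factor that redirects OCT4 to new enhancers in the formative state. It was listed at 2 with dox and 16 without, under the floor in both libraries and larger without dox. Its log2 ratio was −1.12, which depends on the pseudocount, at −2.50 with 1 and −0.34 with 50. Pou3f1, which encodes the POU factor OCT6, was listed at 2 with dox and 0 without. In the dox library 281 rows shared the value 2, and in the no-dox library 1372 rows were listed at 0, so this difference is at the low end of the scale and no fold is given. Of the formative regulators examined, Zic2 and Otx2 thus had smaller values with dox, and Pou3f1 was near 0 in both libraries.

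**Figure D2:**
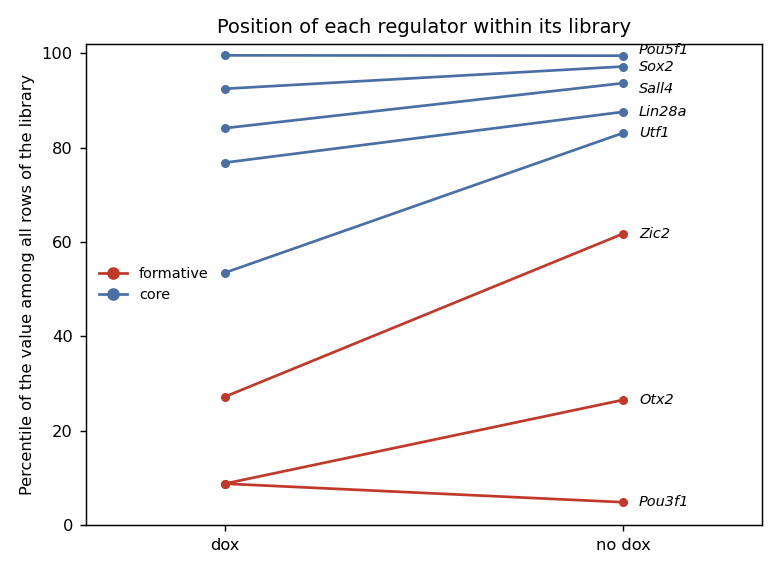
Percentile of each regulator's value among all 14261 rows of its library (vertical axis, percent), with the dox library on the left and the no-dox library on the right; each line is 1 gene, core genes blue and formative genes red. Pou5f1 stays above the 99th percentile in both libraries, while Zic2 stands at 27.2 with dox and 61.8 without.

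The position of each gene within its library needs no pseudocount. Both libraries had the same quartiles and maximum, so above the lowest values a percentile restates the deposited value and is not a separate check. Pou5f1 stood at percentile 99.6 with dox and 99.5 without. Sox2 stood at 92.5 and 97.2 in the dox and no-dox libraries, Sall4 at 84.2 and 93.7, and Lin28a at 76.8 and 87.6. Utf1 stood at 53.5 with dox and 83.1 without. Zic2 was at 27.2 and 61.8, a difference of −34.6 points and the widest of the 8. Otx2 stood at 8.74 with dox and 26.5 without, and Pou3f1 at 8.74 and 4.81.

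**Figure D3:**
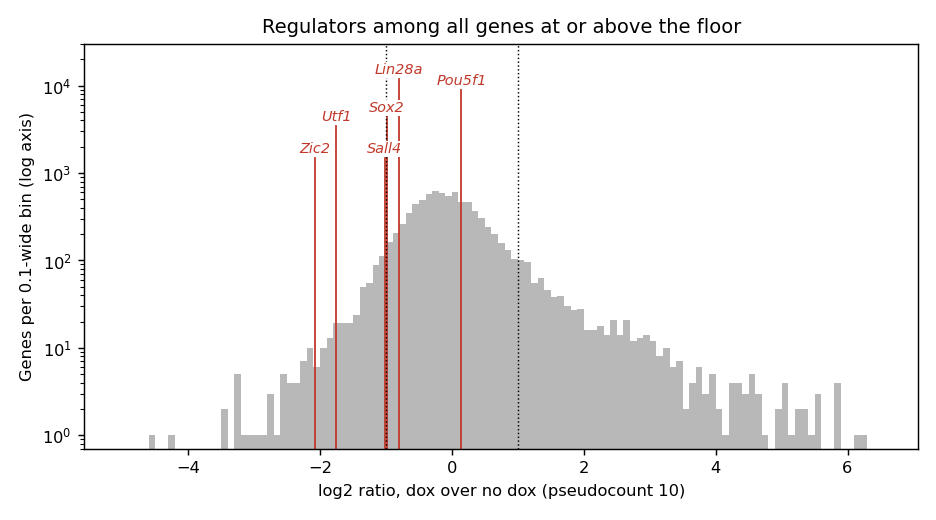
Histogram of the log2 ratio, dox over no dox, of the 8547 genes at or above the floor (grey; bins of 0.1, logarithmic vertical axis), with red lines at the 6 regulators that reached it and dotted lines at 2-fold either way. Zic2 and Utf1 lie in the left tail at −2.08 and −1.75, Sall4 and Sox2 stand on either side of the lower dotted line, and Pou5f1 at 0.14 lies near the centre.

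In the wider list of 19 genes that are active in both the naive and the primed state, 8 were lower with dox, 1 was higher and 10 were within 2-fold. Over all genes at or above the floor, 5.49% were lower and 9.23% higher. All 19 reached the floor, with a median log2 ratio of −0.96 beside −0.08 for all genes. Without the 5 core regulators, 6 of 14 were lower and 1 higher, with a median of −0.94. With a pseudocount of 50, 5 genes of the list were lower, beside 171 of all 8547 genes. With a floor of 250, 5 of the 14 that entered were lower, beside 147 of all 3118 genes. The lowest were Foxd3, a forkhead factor gene, at 12 with dox and 117 without, and Tdgf1, which encodes a Nodal co-receptor, at 231 and 1137. The chromatin gene Dppa4 stood at 77 and 187. Zscan10, a zinc finger gene of ES cells, stood at 166 and 418 and the TGF-beta family ligand gene Gdf3 at 168 and 447. The gene counted as higher was Epcam, an epithelial adhesion gene, at 520 with dox and 228 without. Pou5f1 and Lin28b also had larger values with dox, within 2-fold, and Sall1, a paralogue of Sall4, was listed at 615 in both libraries.

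The list of 21 formative and early post-implantation genes did not move one way. Of the 17 with a row, 8 reached the floor. Of these 8, 2 were higher with dox (9.23% of all genes) and 2 lower (5.49%), with a median of 0.29. Without a floor this median was −0.10, and a floor of 250 gave −0.29. The higher genes were Dnmt3a, a de novo DNA methyltransferase gene, at 134 with dox and 58 without, and Cdh2, which encodes N-cadherin, at 110 and 30. The lower genes were Zic2 and the ligand gene Nodal, at 71 and 176. Dnmt3b, the other de novo methyltransferase gene and a usual marker of the formative state, stood at 279 and 343 and the Wnt effector gene Lef1 at 91 and 78, both within 2-fold. Under the floor, the ETS factor gene Etv4 was listed at 10 and 42, and Sox3, a factor gene of the epiblast and neural plate, at 0 in both libraries. With the length trend removed 1 gene of the list was higher, with a pseudocount of 50 1 was higher and 1 lower, with a floor of 250 0 were either, and with no floor 5 were lower. Over all genes 737 were higher with the length trend removed, and 498 were higher and 171 lower with a pseudocount of 50. A floor of 250 left 298 higher and 147 lower, and no floor left 796 lower.

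The naive factors, beside which the core and formative genes are usually read, had 8 of 11 lower and 0 higher with dox. Their median was −1.17, and of all genes 5.49% were lower and 9.23% higher. The lower genes were Nanog at 623 with dox and 2508 without, Esrrb at 500 and 1531, Klf4 at 314 and 889, Tfcp2l1 at 1208 and 2672, Prdm14 at 50 and 177, Zfp42 at 459 and 1047, Nr5a2 at 59 and 358 and Nr0b1 at 77 and 184. Klf5 stood at 255 and 237. With a pseudocount of 50, 7 of these factors were lower, beside 171 of all genes. With a floor of 250, 6 were lower beside 147 of all genes, and with the length trend removed 6 beside 425.

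**Figure D4:**
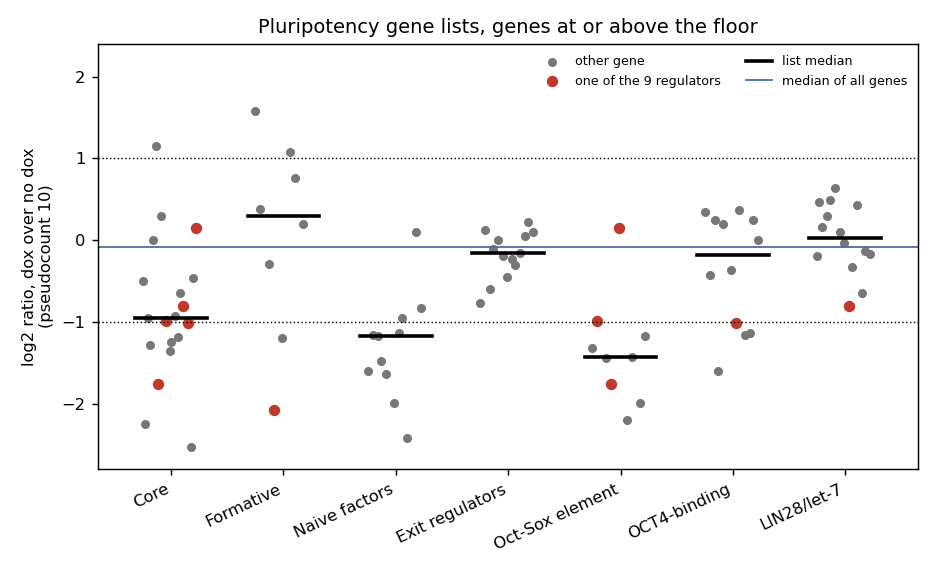
Log2 ratio, dox over no dox, of the genes at or above the floor in 7 lists (each point 1 gene, red for the regulators followed here, black bar for the list median, blue line for the median of all genes, dotted lines at 2-fold). The medians of the Oct-Sox element list and the naive factors are −1.43 and −1.17 (−1.21 and −1.42 with the length trend removed), while the exit regulators and the LIN28/let-7 genes all lie within 2-fold. Of all 8547 genes, 7289 lie within 2-fold.

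Of 9 genes listed for a textbook Oct-Sox element, 7 were lower with dox and 0 higher, beside 5.49% and 9.23% of all genes. Pou5f1 and Sox2, themselves in the list, were within 2-fold. The median was −1.43, and without the 3 regulators in the list 6 of 6 were lower. Whether the element of each gene, Spp1 among them, is of the Oct-Sox kind was not checked. Fgf4, an ES cell growth factor gene with a classic Oct-Sox enhancer, stood at 129 with dox and 631 without. Fbxo15 stood at 244 and 621, the Nodal antagonist gene Lefty1 at 56 and 169, and the secreted phosphoprotein gene Spp1 at 988 and 2679. The other lower genes were Nanog, Zfp42 and Utf1. The list shares Nanog and Zfp42 with the naive factors, so these medians are not independent of each other.

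Among 12 genes whose proteins are known to bind OCT4 in ES cells, 4 were lower and 0 higher, beside 5.49% and 9.23% of all genes. The median of the list was −0.18. The lower genes were 4 of the 5 transcription factor genes in the list, namely Sall4, Esrrb, Nr0b1 and Tfcp2l1, and the fifth, Sall1, was level. All of these lower genes are also counted above, Sall4 as a regulator and the others as naive factors. The 7 genes of chromatin, modifying and signalling proteins lay between −0.43 and 0.37 on the log2 ratio scale. Among these, the NuRD helicase gene Chd4 stood at 1703 with dox and 1334 without, the BAF ATPase gene Smarca4 at 884 and 743, and the beta-catenin gene Ctnnb1 at 2871 and 2221. This split of the list was made after the values were seen. With a pseudocount of 50 the number lower was 2, beside 171 of all 8547 genes.

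Regulators that drive or delay the exit from the naive state were measured as well. All 13 reached the floor and 0 passed 2-fold in either direction, where 7289 of all 8547 genes were within 2-fold. The median of the 13 was −0.16, with a range from −0.77 to 0.23. The lowest ratio was that of the ETS factor gene Etv5, at 594 with dox and 1023 without. Tcf7l1, which encodes the repressor, also called TCF3, that dampens naive genes, stood at 171 and 203.

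The LIN28 and let-7 pathway likewise had 0 of 14 genes past 2-fold, where 7289 of all 8547 genes were within it. The median of the pathway was 0.03, and 7 genes were smaller and 7 larger with dox. Lin28a had the lowest ratio in the pathway. Igf2bp1, a known let-7 target gene, stood at 1336 with dox and 987 without, and the microRNA-binding gene Ago2 at 759 and 873. Trim71, a stem cell gene regulated by let-7, stood at 365 and 578.

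**Figure D5:**
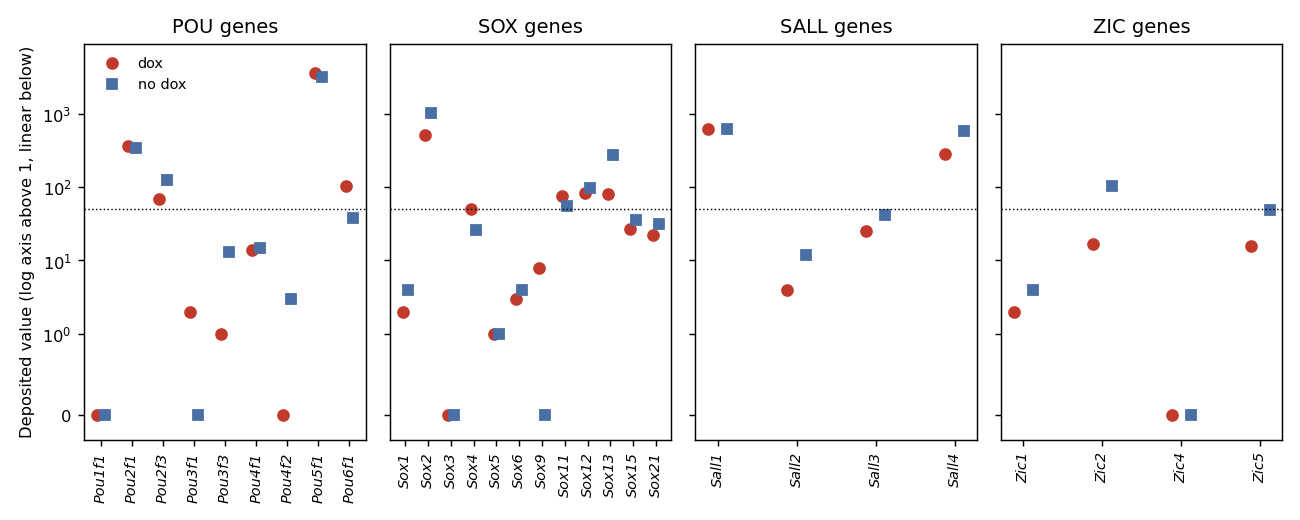
Deposited values of genes of the POU, SOX, SALL and ZIC families (reported genes with a row; vertical axis logarithmic above 1 and linear below; dotted line at the floor of 50), with red circles for the dox library and blue squares for the no-dox library. The ZIC genes drawn with any value lie lower with dox, Sall1 coincides in both libraries, and most SOX and POU genes are under the floor.

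Relatives of the regulators were read in the same way, family by family, beside the 5.49% lower and 9.23% higher of all genes. In the ZIC family Zic2 was lower with dox and 0 genes were higher. Zic5, a neighbour of Zic2 on chromosome 14 that begins on the opposite strand with 9757 bases between the genes, was listed at 16 with dox and 49 without, just under the floor. Zic1 was listed at 2 and 4, and Zic4 at 0 in both. In the SALL family Sall4 was lower, Sall1 was level, and Sall2 and Sall3 were under the floor at 4 and 12 and at 25 and 42 with and without dox.

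In the SOX family 5 of 12 genes with a row reached the floor, of which 1 was lower and 0 higher. The lower gene was Sox13, at 80 with dox and 277 without. Sox4 stood at 51 and 26 and Sox11 at 75 and 55, within 2-fold on the ratio scale used here. In the POU family 4 of 9 genes with a row reached the floor, and Pou6f1 was higher, at 105 with dox and 38 without, though not with a pseudocount of 50. Pou2f1, which encodes the widely expressed OCT1, stood at 370 and 342. Of the homeobox genes listed with Otx2, Gsc was listed at 1 and 38, under the floor, so no gene of that list could be counted.

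Markers of other cell types were read beside these values, since Sox2, Otx2, Zic2 and Pou3f1 are also used in neural tissue. All 7 ES cell markers had values above the floor in both libraries. Dppa5a stood at 3818 with dox and 4342 without, Pou5f1 and Sox2 were within 2-fold, and Nanog, Esrrb, Zfp42 and Fbxo15 were lower with dox, with the values given above. Of 12 neuroectoderm markers 7 had a row and 3 reached the floor, with summed values of 372 with dox and 453 without. Such sums lean on the genes with the largest values and do not measure the amount of a cell type. Nes was higher, at 151 and 55, and Tubb3 lower, at 127 and 302, while the defining factors Sox1, at 2 and 4, and Pax6, at 4 and 2, were near 0. With a pseudocount of 50 neither Nes nor Tubb3 passed 2-fold. Of 10 primitive streak and mesoderm markers 6 had a row, summing to 79 and 209, and T, the only one at the floor, was lower at 24 and 121. The 4 primitive endoderm markers with a row summed to 25 with dox and 24 without, with Gata4 at 7 and 4 and Gata6 at 8 and 4. Trophectoderm markers summed to 754 and 275 over 9 genes, with Krt7 at 374 and 0 and Tead4 at 158 and 50 higher with dox. Tfap2c, the third at the floor, stood at 113 and 159, and Eomes and Cdx2 were under it at 18 and 32 and at 34 and 28. Without Krt7 the trophectoderm sums were 380 and 275. Fibroblast markers summed to 74 and 41 over 10 genes, none at the floor, with Col1a1 at 3 and 2 and Col3a1 at 39 and 2. Without Col3a1 the fibroblast sums were 35 and 39. What part other cell types have in the lower core and formative values was not tested.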

How the data were processed

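RNA was measured in 2 libraries, 1 per group, grouped by the agent given for each sample. Per the labels' protocols, TRIzol RNA was made into TruSeq libraries and read on a NextSeq 500. Reads were handled with bcl2fastq, Bowtie2 and RSEM on mm10, per the submitters' processing notes; those sources give no version, annotation, normalization or filter. The deposited values were treated as a score on a normalized count scale, rounded by the authors, because both libraries had identical quartiles and the same maximum; they are not read counts, and no count model was used. On such a scale depth is not kept. Reads on overlapping genes of either strand cannot be told apart, since strand-aware counting is not stated. Overlapping genes in GENCODE M21 were found for Pou5f1, Sox2, Sall4, Lin28a, Otx2 and Pou3f1, none with its own row.

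Log2 ratios used a pseudocount of 10, a floor of 50 and a threshold of 2-fold. Alternatives were pseudocounts of 1 and 50, no floor, a floor of 250, centring on the median, percentile ranks, and removal of the trend on transcript length (lowess fraction 0.3, 8472 genes with a length). The members and 17 gene lists were chosen with earlier results of these data known. Genes named were all members, Jun, and in each list those past 2-fold, otherwise those with the largest values; further genes were named after their values were seen, and some that the rule takes are not reported here. Symbols that a spreadsheet turned into dates stood in 21 rows. Columns of sample values left unused numbered 0. Shared sequence was sought with BLAST (at least 200 nt at 90% identity); promoters came from the RefSeq table, which held 6 of the 9 genes. Python 3.11.15, numpy 2.4.6, pandas 2.3.3, statsmodels 0.14.6 and matplotlib 3.10.9 were used. The calls were tested on simulated data, with differences well past 2-fold set in genes with high values. Calls close to 2-fold, or of changed genes with low values, were not tested.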

Additional observations from a re-analysis of the deposited data

How the results depend on the processing

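No paired analysis was possible because each group had 1 library, and for the same reason no replicate could be left out. All 6 regulators at or above the floor kept the direction of their log2 ratio, dox over no dox, under every alternative run. A change of pseudocount or floor cannot reverse a direction. Centring subtracted a median of −0.08, smaller in size than the log2 ratio of each of the 6. Percentile ranks follow nearly the same curve as the values in both libraries, which share quartiles and a maximum. Of the alternatives, removal of the length trend alone was free to reverse a direction. Sall4 was within 2-fold with a pseudocount of 50 (−0.93) and with the median of all genes set to 0 (−0.94), where Zic2 stood at −2.00. With no floor Otx2 counted as lower, at −1.12, and with a floor of 250 Zic2, at −2.08, did not enter. The number of regulators lower with dox ran from 2 to 4, and 0 were higher under each alternative. Over all genes, the counts higher and lower with dox were 789 and 469, and they were 498 and 171 with a pseudocount of 50, 1255 and 796 with no floor, and 298 and 147 with a floor of 250. The floors change how many genes are counted. A pseudocount of 50 keeps the same genes and draws their ratios towards 1, so fewer pass 2-fold. Of 286 values of gene lists under the alternatives, 31 moved past a threshold or by more than 1.5 times. Medians of 3 lists, none past 2-fold to begin with, changed sign in 6 of 82 comparisons of list medians. The formative median of 0.29 became −0.10 without a floor and −0.29 at a floor of 250, and the neuroectoderm median of 0.32 became −0.22 and −1.19. The LIN28 and let-7 median of 0.03 became −0.10 at a floor of 250 and −0.16 once the trend on length was taken out. The depth of either library is unknown, so values near 0, such as those of Otx2 and Pou3f1, have no stated precision.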
